A study of Mus musculus with 6 samples.

Results

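The genes that write, copy and remove DNA methylation in mouse were followed through mitotic exit by the accessible DNA around them. The 8 genes were Dnmt1, Uhrf1, Dnmt3a, Dnmt3b, Dnmt3l, Tet1, Tet2 and Tet3, of 21883 protein-coding genes on the chromosomes covered. Every called peak that overlapped one of these genes or the 20 kb on either side of it was taken, which gave 66 of 65324 merged regions. A merged region joins peaks of the 6 lists that overlap by at least 1 bp.

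Accessibility was measured by ATAC-seq, in which the Tn5 transposase inserts sequencing adapters into open DNA, in CGR8 mouse embryonic stem cells. The 3 groups are named mito, LM and eG1-1 in the sample titles, with 2 replicates each, and the title of the series places them in mitotic exit, so they are given in that order. The titles of all 6 samples name N2B27, the serum-free medium that the protocols give for the Cdt-MD cells (Cdt1-MD in the design text), an untreated derivative of CGR8 grown with the GSK3 inhibitor CHIR99021, the MEK inhibitor PD184352 and leukemia inhibitory factor. The labels name no difference in genotype or treatment between the groups, and they neither describe the Cdt-MD construct nor say whether replicates were separate cultures.

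Methylation of mammalian DNA sits mainly on the cytosine of a CpG dinucleotide and is copied to the new strand after replication by Dnmt1, which Uhrf1 brings to half-methylated sites. Dnmt3a and Dnmt3b methylate new sites, helped by Dnmt3l, a relative that has no catalytic activity of its own, and Tet1, Tet2 and Tet3 oxidise methylated cytosine as a step towards its removal. Mouse embryonic stem cells are known for expressing Tet1 and Tet2, and their DNA loses methylation when both inhibitors named above are present.

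The promoter table of RefSeq (GRCm38.p6) listed 15 start sites for the 8 genes, and each gene had at least 1. The 6 sequences below, each the 250 bases before a listed start, were chosen because they stand at the extremes of the results: starts with a peak in all 6 lists, starts with none, and starts of uneven calls. They are written 5′ to 3′ along the gene's own strand, with CpG in capitals. The outermost start of Dnmt1 (chr9:20959889-20960138, minus strand) had 2 CpG in these bases and no peak within 1 kb in any list, whereas its second start (chr9:20952980-20953229, minus strand) had 7 and a peak in all 6. The outermost start of Uhrf1 (chr17:56303087-56303336, plus strand) had 10 CpG and its second start (chr17:56304063-56304312, plus strand) 30. The start of Tet1 (chr10:62887325-62887574, minus strand) had 15 CpG and no peak within 1 kb in any list, and the start of Tet2 (chr3:133544391-133544640, minus strand) had 51 and peaks in both mito lists and 1 LM list.
Dnmt1 start 1: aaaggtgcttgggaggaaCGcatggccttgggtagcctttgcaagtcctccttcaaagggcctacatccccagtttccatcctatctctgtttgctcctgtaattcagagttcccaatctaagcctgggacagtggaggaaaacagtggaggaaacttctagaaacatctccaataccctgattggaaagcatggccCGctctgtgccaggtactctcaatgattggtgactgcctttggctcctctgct
Dnmt1 start 2: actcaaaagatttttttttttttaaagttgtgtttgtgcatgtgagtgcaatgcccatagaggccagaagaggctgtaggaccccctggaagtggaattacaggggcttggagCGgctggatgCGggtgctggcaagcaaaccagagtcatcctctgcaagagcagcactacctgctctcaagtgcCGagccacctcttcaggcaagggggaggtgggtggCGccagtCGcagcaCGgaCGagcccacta
Uhrf1 start 1: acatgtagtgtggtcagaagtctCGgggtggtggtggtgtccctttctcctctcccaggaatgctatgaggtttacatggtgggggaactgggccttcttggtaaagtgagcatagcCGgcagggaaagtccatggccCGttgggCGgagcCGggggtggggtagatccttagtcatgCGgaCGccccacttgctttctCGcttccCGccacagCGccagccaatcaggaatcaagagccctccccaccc
Uhrf1 start 2: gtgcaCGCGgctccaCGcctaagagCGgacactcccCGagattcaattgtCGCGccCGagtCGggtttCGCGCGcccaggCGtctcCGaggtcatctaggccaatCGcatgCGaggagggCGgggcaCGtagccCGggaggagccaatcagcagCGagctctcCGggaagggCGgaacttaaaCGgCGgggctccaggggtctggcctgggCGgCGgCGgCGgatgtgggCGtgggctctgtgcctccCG
Tet1 start: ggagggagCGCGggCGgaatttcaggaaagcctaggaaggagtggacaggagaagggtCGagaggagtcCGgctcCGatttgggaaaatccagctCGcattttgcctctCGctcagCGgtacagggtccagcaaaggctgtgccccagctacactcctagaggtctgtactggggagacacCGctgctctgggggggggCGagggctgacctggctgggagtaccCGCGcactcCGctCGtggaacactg
Tet2 start: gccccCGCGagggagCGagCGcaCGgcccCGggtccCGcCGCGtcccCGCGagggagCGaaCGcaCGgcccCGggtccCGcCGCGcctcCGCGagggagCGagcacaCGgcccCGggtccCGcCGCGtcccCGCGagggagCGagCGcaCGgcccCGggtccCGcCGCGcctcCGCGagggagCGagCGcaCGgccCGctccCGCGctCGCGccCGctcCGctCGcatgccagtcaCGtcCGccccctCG

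Of the 8 genes, Dnmt1 and Uhrf1 had a peak within 1 kb of a listed start in all 6 lists. Over all genes with a listed start, 29.2% did so. No start of Dnmt3a, Dnmt3b, Dnmt3l or a Tet gene had a peak within 1 kb in more than 5 lists. The Tet3 start was missed in LM replicate 2 alone, Dnmt3b had a start peak in 4 lists, and the Tet1 start had none. Uhrf1, Tet2 and Tet3 had a peak within 1 kb of an annotated gene end in both mito lists. Uhrf1 and Dnmt3b had one in both LM lists, and in eG1-1 Uhrf1 was the 1 gene of the 8 with a gene-end peak in both lists. Tet2 dropped out of the mito count with a score of at least 50, at equal list length, within 500 bp of the end and by peak centre, each of which left Uhrf1 and Tet3. Without eG1-1 replicate 1 the eG1-1 count was 3, with Dnmt3b and Tet1 added. Without mito replicate 2 the mito count was 4, with Dnmt3b added, and without LM replicate 2 the LM count was 3, with Tet2 added. The counts of 3, 2 and 1 of 8 genes stand beside 43.1%, 32.7% and 39.4% of all protein-coding genes in mito, LM and eG1-1. The map of peaks along the genes shows that the annotated ends miss inner start sites, so the listed starts were also used, a measure chosen after the values were seen. Within 1 kb of a listed start, Dnmt1, Uhrf1, Tet2 and Tet3 had a peak in both mito lists, against 45.1% of genes with a listed start. Dnmt1, Uhrf1 and Dnmt3b did so in LM, against 34.3%, and Dnmt1, Uhrf1 and Tet3 in eG1-1, against 40.8%. Without LM replicate 2 the LM count rose from 3 to 6 genes, and without eG1-1 replicate 1 the eG1-1 count rose from 3 to 5. The mito count rose from 4 to 6 without mito replicate 1 and to 5 without mito replicate 2. With a list left out, a peak was needed only in the 1 list that remained. Neither these counts nor the gene-end counts could fall under that rule. LM replicate 2 was the shortest list, with 20639 peaks against 23867 to 48396 in the others. With every list shortened to its 20639 strongest peaks, the start-site counts were 3 in each group, with the LM and eG1-1 genes as above and mito without Tet2. Tet2 was also lost from the mito starts with a score of at least 50 and with the 300-base window, which lost Tet3 as well.

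**Figure D1:**
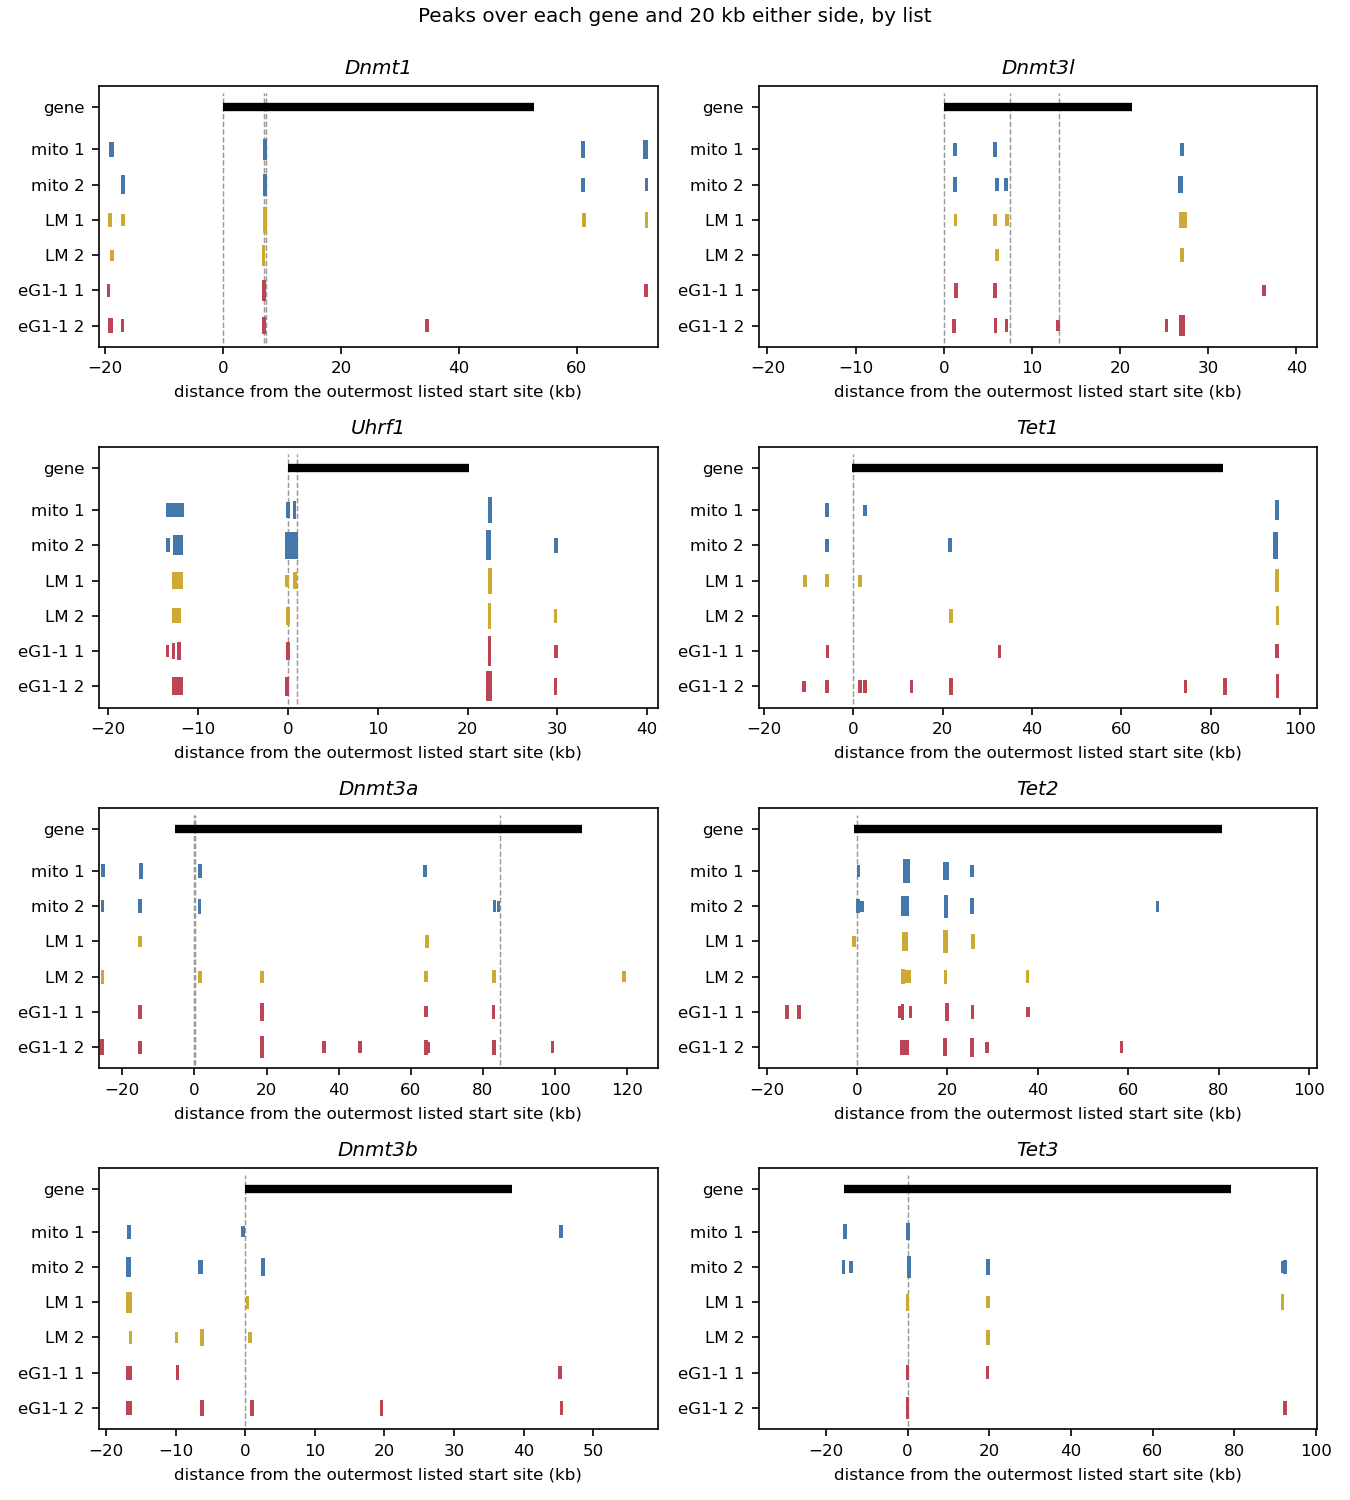
Peaks over each of the 8 genes and 20 kb either side, by list; the x axis is the distance in kb from the outermost listed start along the direction of transcription, bar height rises with the authors' score, the black bar is the gene, and dashed lines are listed starts. Peaks too narrow to see are drawn wider than they are. Dnmt1 and Uhrf1 carry a peak at a start in all 6 lists, and the Tet1 start carries none.

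Dnmt1, the maintenance methyltransferase, occupies chr9:20907206-20959888 on the minus strand. Its 1 gene-internal region present in all 6 lists, chr9:20952361-20953245, covered both inner listed starts. Its score, the authors' own value for a peak, was 118 and 124 in the 2 mito lists, 157 and 116 in LM, with 109 and 80 in eG1-1. Scores rank peaks within a list and are not compared between lists. Among the peaks of its own list this peak stood at percentile 85.7 and 84.3 in mito, 91.9 and 89.2 in LM, with 86.1 and 66.6 in eG1-1. It was the highest-scoring peak within any of the 8 genes in LM replicate 1, LM replicate 2 and eG1-1 replicate 1, and ranked sixth among the genes in eG1-1 replicate 2. Its width was 719 and 794 bp in mito, 808 and 438 bp in LM, with 560 and 541 bp in eG1-1. In LM replicate 2 and eG1-1 replicate 2 the peak stopped 185 and 31 bp short of the innermost start. The nearest peak to the outermost start lay between 6643 and 6734 bp away in the 6 lists. One other site inside the gene, chr9:20925073-20925458, was called in eG1-1 replicate 2 alone, with a score of 37.

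The flanks of Dnmt1 held 4 regions, 3 of them at the end of a neighbouring gene. The region at the end of Eif3g, a translation initiation factor gene (chr9:20898521-20899121), scored 82 and 50 in mito and 49 in LM replicate 1 and was absent from LM replicate 2 and both eG1-1 lists. The region at the end of Ppan scored 92 and 42 in mito, 61 in LM replicate 1 and 47 in eG1-1 replicate 1. That at the end of S1pr2, a receptor gene, was called in mito replicate 2, LM replicate 1 and eG1-1 replicate 2, with scores of 101, 23 and 34. The remaining flanking region, chr9:20978390-20979425, scored 51 in mito replicate 1, 56 and 18 in LM, with 41 and 64 in eG1-1. The lists do not assign a peak at a neighbour's end to one gene or the other.

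Uhrf1, whose protein recognises half-methylated CpG, lies on chr17:56303337-56323486 on the plus strand. Its start region, chr17:56303043-56304431, was the 1 gene-end region of the 8 genes that was present in all 6 lists. The best score there was 87 and 178 in mito, 74 and 81 in LM, with 83 and 94 in eG1-1, and no peak was called elsewhere inside the gene. The region was made of separate peaks over the 2 starts printed above. Both mito lists and LM replicate 1 had a peak that entered the 300-base window around the second start, which runs from 250 bases before to 50 after it. In mito replicate 2 this was a single peak of 1389 bp over both starts, with a score of 178. In mito replicate 1 separate peaks of 305 and 348 bp scored 69 and 87, and in LM replicate 1 peaks of 330 and 509 bp scored 29 and 74. LM replicate 2 and both eG1-1 lists had only the peak over the first start, with widths of 230, 198 and 261 bp and scores of 81, 83 and 94. The nearest peak in those 3 lists ended 869, 886 and 920 bp before the second start. This second window of Uhrf1 was the 1 of 15 windows held in both mito lists and neither eG1-1 list, a pattern of 1.81% of all listed windows.

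The 2 flanking regions of Uhrf1 held in all 6 lists lay at other genes. The region at the end of Kdm4b, a histone demethylase gene (chr17:56325381-56326059), had the highest score of any region in the 8 windows in each of the 6 lists: 168 and 276 in mito, 164 and 169 in LM, with 204 and 352 in eG1-1. The region at the end of Plin3, a lipid-droplet protein gene (chr17:56289725-56291727), scored 49 and 106 in mito, 82 and 59 in LM, with 83 and 87 in eG1-1. These are named as neighbours and were not counted as Uhrf1 gene-end sites.

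Dnmt3a, a de novo methyltransferase, spans chr12:3801559-3914443 on the plus strand and had no gene-end peak in any list. A region 1283 bp past its second start, chr12:3808055-3808832, scored 54 and 55 in mito and 27 in LM replicate 2, and was not called in LM replicate 1 or either eG1-1 list. A second region 18612 bp past that start, chr12:3825498-3826046, had the reverse order. It scored 81 and 123 in eG1-1 and 28 in LM replicate 2, and was not called in LM replicate 1 or either mito list. In eG1-1 these peaks stood at percentile 75.7 and 82.8 of their lists, and in eG1-1 replicate 2 the score was the highest within any of the 8 genes. This region was the 1 of 66 held in both eG1-1 lists and neither mito list, against 8.07% of all regions. Near the innermost listed start, a region 1705 bp upstream of it (chr12:3889708-3890371) scored 28 in mito replicate 2, 37 in LM replicate 2, and 49 and 60 in eG1-1. Of the 11 regions of Dnmt3a, 5 were called in 1 list only, 3 of these in eG1-1 replicate 2.

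Dnmt3b, the other de novo methyltransferase, lies on chr2:153649411-153687730 on the plus strand and had a peak near its start in 4 lists, but at 4 sites that did not overlap. Mito replicate 1 had a peak 367 bp upstream with a score of 22, and LM replicate 1 had one 310 bp downstream with 39. LM replicate 2 had one 677 bp downstream with 28, and eG1-1 replicate 2 had one 913 bp downstream with 63. Mito replicate 2 had its nearest peak 2247 bp away, and eG1-1 replicate 1 had its nearest 9569 bp away. The count of Dnmt3b as held in both LM lists therefore rests on separate peaks, and no merged region at its start was shared by 2 lists. A flanking region beyond the far end, chr2:153694588-153695100, scored 39 in mito replicate 1 and 34 and 42 in eG1-1. It was the 1 region held in both eG1-1 lists and neither LM list, against 9.38% of all regions. The 1 region of the window in all 6 lists stood at the end of Commd7 (chr2:153632211-153633186), with scores of 49 and 106 in mito, 112 and 46 in LM, with 47 and 52 in eG1-1.

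Dnmt3l, the cofactor without catalytic activity, lies on chr10:78042287-78063622 on the plus strand and had no gene-end peak under the 1 kb limit. A region at chr10:78047911-78048524, 1625 bp before its second start, was held in all 6 lists with scores of 63 and 34 in mito, 37 and 27 in LM, with 58 and 55 in eG1-1. Another at chr10:78043319-78043849 scored 38 and 61 in mito, 25 in LM replicate 1, and 55 and 50 in eG1-1. Its nearer edge lay 32 bp outside the 1 kb limit around the Dnmt3l end. Its centre lay 26 bp from the annotated end of Aire, a neighbouring transcriptional regulator gene. On the other side of the limit, the Tet2 peak of mito replicate 1 was 30 bp inside it. A further site 515 bp before the second start was called in mito replicate 2, LM replicate 1 and eG1-1 replicate 2, with scores of 44, 32 and 43. The innermost start, at chr10:78055335, had a peak in eG1-1 replicate 2 alone, with a score of 24.

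Tet1, an oxidase abundant in embryonic stem cells, lies on chr10:62804570-62887469 on the minus strand and had no peak within 1 kb of its start in any list. The nearest peak was 2390 and 5519 bp away in mito, 1437 and 21770 bp in LM, with 5465 and 1437 bp in eG1-1. The closest region, 1591 bp past the start, was called in LM replicate 1 with a score of 28 and in eG1-1 replicate 2 with 42. The region next to it, 2668 bp past the start, scored 21 in mito replicate 1 and 44 in eG1-1 replicate 2. A region 5877 bp upstream, chr10:62892789-62893614, was the most widely held one not at another gene. It scored 48 and 40 in mito, 42 in LM replicate 1, and 42 and 35 in eG1-1, and was not called in LM replicate 2. The 1 gene-end region of Tet1, at its far end (chr10:62804053-62804308), was called in eG1-1 replicate 2 alone, with a score of 79. At Ccar1, the neighbour on that side, a region in all 6 lists scored 107 and 180 in mito, 140 and 97 in LM, with 53 and 144 in eG1-1.

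Tet2, the other Tet gene known from embryonic stem cells, lies on chr3:133463677-133545136 on the minus strand. A region 269 bp past its start, chr3:133543904-133544339, scored 29 and 47 in the mito lists and was called in neither LM nor eG1-1 list. LM replicate 1 had a separate peak 642 bp before the start with a score of 22. Both mito peaks were low within their lists, at percentile 35.9 or below. By contrast, Tet2 had 2 interior regions held in all 6 lists, more than 1 kb from its listed start and not at another gene. Under the same 1 kb limit Dnmt3l had 1 such region, the one 1625 bp before its second start. The first, 19615 bp past the start (chr3:133524140-133525411), scored 84 and 131 in mito, 131 and 51 in LM, with 93 and 91 in eG1-1. The second, 10700 bp past the start (chr3:133532422-133534958), scored 142 and 101 in mito, 101 and 61 in LM, with 63 and 60 in eG1-1. The second was called as 1 peak of 1727 and 1792 bp in mito, 1346 bp in LM replicate 1 and 1896 bp in eG1-1 replicate 2. In LM replicate 2 and eG1-1 replicate 1, the lists with the smallest median peak widths (336 and 340 bp), it was called as 3 peaks of 189 to 340 bp. A further site 25465 bp past the start scored 35 and 70 in mito, 51 in LM replicate 1, and 47 and 93 in eG1-1.

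Tet3, the family member best known from the oocyte and early embryo, lies on chr6:83362373-83457208 on the minus strand. Its start region, chr6:83441189-83442157, scored 82 and 121 in mito, 78 in LM replicate 1, and 56 and 119 in eG1-1, and was not called in LM replicate 2. The annotated gene reaches 15.5 kb further upstream than its listed start, and a separate region stood at that outer end (chr6:83456825-83457609). This outer region scored 58 and 54 in mito and was called in neither LM nor eG1-1 list. An interior region 19578 bp past the listed start scored 75 in mito replicate 2, 35 and 56 in LM, and 34 in eG1-1 replicate 1.

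**Figure D2:**
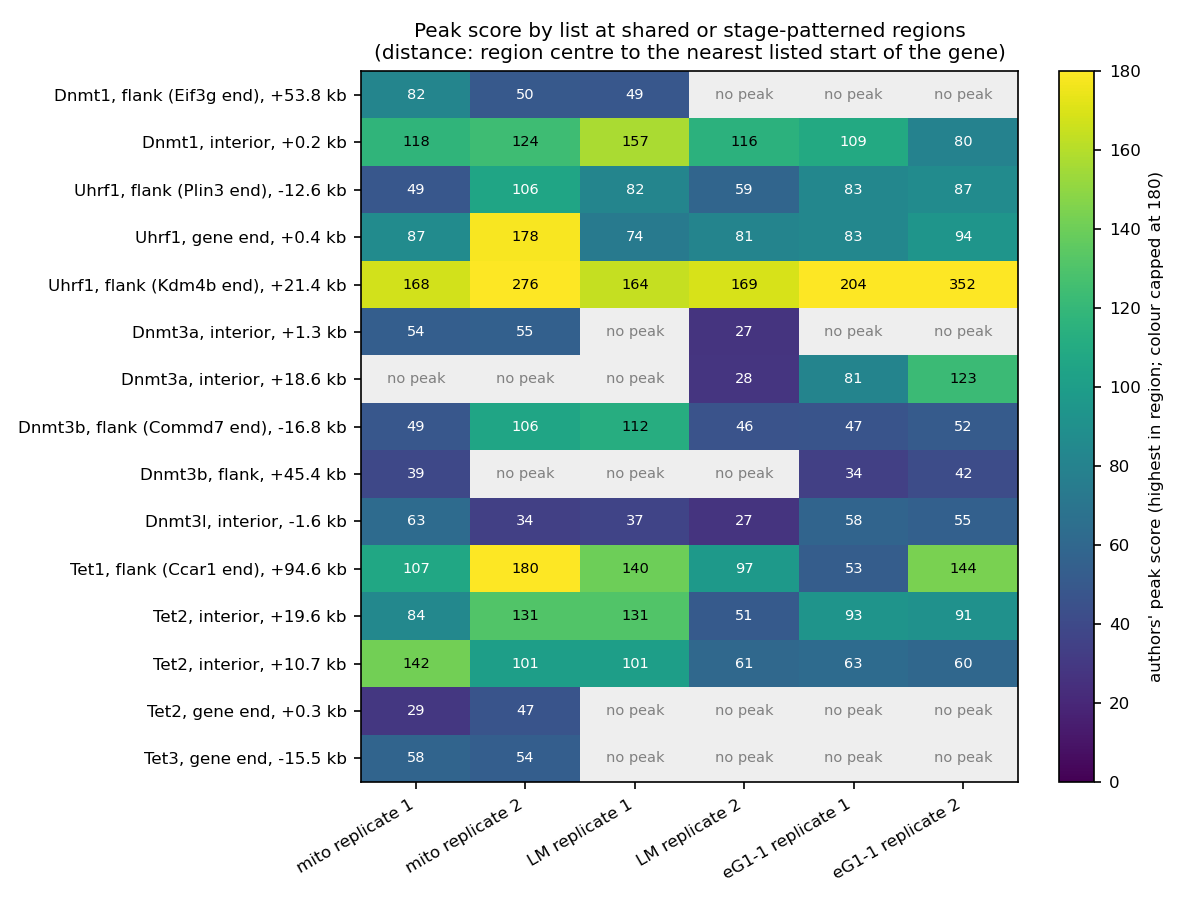
Authors' peak score in each of the 6 lists (columns) at every region of the 8 windows that was held in all 6 lists, at a gene end in more than 1 list, or in both lists of one group and neither of another (rows, with the distance in kb of the region's centre from the nearest listed start). Grey cells had no peak. The Tet2 and Tet3 gene-end regions shown carry scores in the mito columns only. A second Tet2 gene-end region, called in LM replicate 1 alone, falls outside the rule for rows and is not shown.

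Read by stage, 4 of the 66 regions were in both mito lists and neither eG1-1 list: the Eif3g end beside Dnmt1, the region past the second start of Dnmt3a, the Tet2 start region and the outer Tet3 end. The same pattern was seen in 1.85% of all regions. The Tet2 and Tet3 regions were also absent from both LM lists. Of all regions, 3.56% were called in mito replicates 1 and 2 but never in LM, whatever eG1-1 showed. The share absent from LM and eG1-1 together was not counted. At the level of genes, Tet3 was open at a gene end in mito replicates 1 and 2 but in neither LM list, against 2.17% of protein-coding genes, and Tet2 and Tet3 did so against eG1-1, beside 1.97%, though the Tet2 call was not held at equal list length or with a score of at least 50. At listed starts, Tet2 alone of the 8 genes had a peak in both mito lists and neither eG1-1 list, beside 1.98% of genes. No region of the 66 was in both LM lists and neither mito list, beside 0.905% of all regions, and none was in both LM lists and neither eG1-1 list, beside 0.459%. The single regions that eG1-1 held against mito and against LM were those of Dnmt3a and Dnmt3b given above. With 2 lists against 2 the smallest exact two-sided permutation p is 0.333, so no such pattern could pass a test on its own.

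These stage counts moved with single lists, and so did the shares over all regions, which were merged again for each setting. Leaving out a list loosens the rule from 2 lists of a group to 1, so higher counts follow by construction. Without mito replicate 1, 10 regions were held in mito and not eG1-1 (14.9%, beside 7.99% of all regions) and 9 in mito and not LM (13.4%, beside 14.1%). Without mito replicate 2, mito held 5 regions that LM did not (8.06%, beside 9.05%), and eG1-1 held 3 that mito did not (4.84%, beside 13.7%). Without eG1-1 replicate 1, eG1-1 held 16 against mito and 16 against LM, 25.8% each, below the 35.5% and 39.4% of all regions. Without eG1-1 replicate 2 these were 8 (14.8%, beside 21.6%) and 6 (11.1%, beside 23.7%). Without LM replicate 1, 9 regions were in mito and not LM (13.8%, beside 9.66%) and 5 in LM and not mito (7.69%, beside 6.16%). Without LM replicate 2 the same directions gave 4 and 4 regions (6.25% each, beside 6% and 6.31%). Mito and not eG1-1 took 5 of 62 regions without eG1-1 replicate 1 (8.06%, beside 2.95%). It took 6 of 54 without eG1-1 replicate 2 (11.1%, beside 8.18%). With a score of at least 50 it took 4 of 35 regions (11.4%, beside 2.8%). By centres within 250 bp it took 3 of 76 (3.95%, beside 1.98%). With lists shortened to their 20639 strongest peaks, it took 3 of 47 regions, 6.38% beside 5.8% of all regions. Under that setting alone of these 5 was the members' share near the background. At that length eG1-1 held 0 regions against LM (beside 4.01%), and LM held 1 against mito (2.13%, beside 2.08%) and 2 against eG1-1 (4.26%, beside 3.12%).

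The number of peaks per window did not order the stages in a way that held at equal list length. The 8 windows held 27 and 36 peaks in mito, 28 and 26 in LM, with 32 and 44 in eG1-1. The mean was 31.5 ± 6.36 for mito, 27 ± 1.41 for LM and 38 ± 8.49 for eG1-1 (SD, n = 2 lists each), and the mito values overlapped both other ranges. Per 10000 peaks of the list the windows held 11.0 and 11.8 in mito, 11.7 and 12.6 in LM, with 9.97 and 9.09 in eG1-1, so both eG1-1 lists were below the other 4. Among the 20639 strongest peaks of each list the windows held 23 and 25 peaks in mito, 25 and 26 in LM, 24 and 15 in eG1-1. The group means were 24, 25.5 and 19.5, with eG1-1 lowest through replicate 2 alone, since replicate 1 was above mito replicate 1. The peak names carry one code in all replicate 1 lists and another in all replicate 2 lists. The sample titles do not say what the code stands for. Among the replicate 1 lists the counts were 27, 28 and 32 in mito, LM and eG1-1, and among the replicate 2 lists 36, 26 and 44.

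By place, gene-end peaks numbered 5 and 3 in mito, 4 and 2 in LM, with 1 and 3 in eG1-1. Interior peaks numbered 10 and 17, 11 and 13, and 15 and 25 in the same order, and flanking peaks 12 and 16, 13 and 11, and 16 and 16. The largest differences between replicates were in eG1-1, where Tet1 had 3 peaks in replicate 1 and 9 in replicate 2, and Dnmt3a had 4 and 9. Tet2 went the other way, with 8 peaks in eG1-1 replicate 1 and 5 in replicate 2. Of the 27 regions called in 1 list only, 13 (48.1%) were in eG1-1 replicate 2, the longest list, beside 51.5% of all single-list regions.

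The slope of peak number over mito, LM and eG1-1 was tested by two-sided exact permutation of the lists for each of 18090 genes with a peak in any list. None of the 8 genes passed an unadjusted p of 0.05: their exact p ran from 0.4 to 0.933, and their Benjamini-Hochberg adjusted p was 1. The slopes were 1.5 peaks per stage for Tet1, 1 for Dnmt3a, 0.75 for Tet2, 0.5 for Dnmt3b and Dnmt3l, 0.25 for Uhrf1, -0.25 for Dnmt1 and -1 for Tet3. Without eG1-1 replicate 2 the Tet1 slope was 0 and the Dnmt3a slope -0.29; without mito replicate 2 the Tet3 slope was 0. The directions depend on list length: per 10000 peaks of the list the slopes of Uhrf1, Dnmt3a, Dnmt3b, Dnmt3l and Tet2 were negative, from -0.018 for Tet2 to -0.14 for Uhrf1. Tet1 stayed positive there at 0.15, and Dnmt1 and Tet3 stayed negative. On the strongest peaks at equal length Uhrf1, Dnmt3a and Tet2 had a slope of 0, Dnmt3b -0.25 and Dnmt3l -0.75. Over all genes the median slope was 0.25, 0.647% rose and 0.0498% fell at an unadjusted p under 0.05, and none passed after adjustment. The smallest p that the 90 assignments allow is 0.0222. The spread behind these p-values is that between the deposited samples and could be technical.

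**Figure D3:**
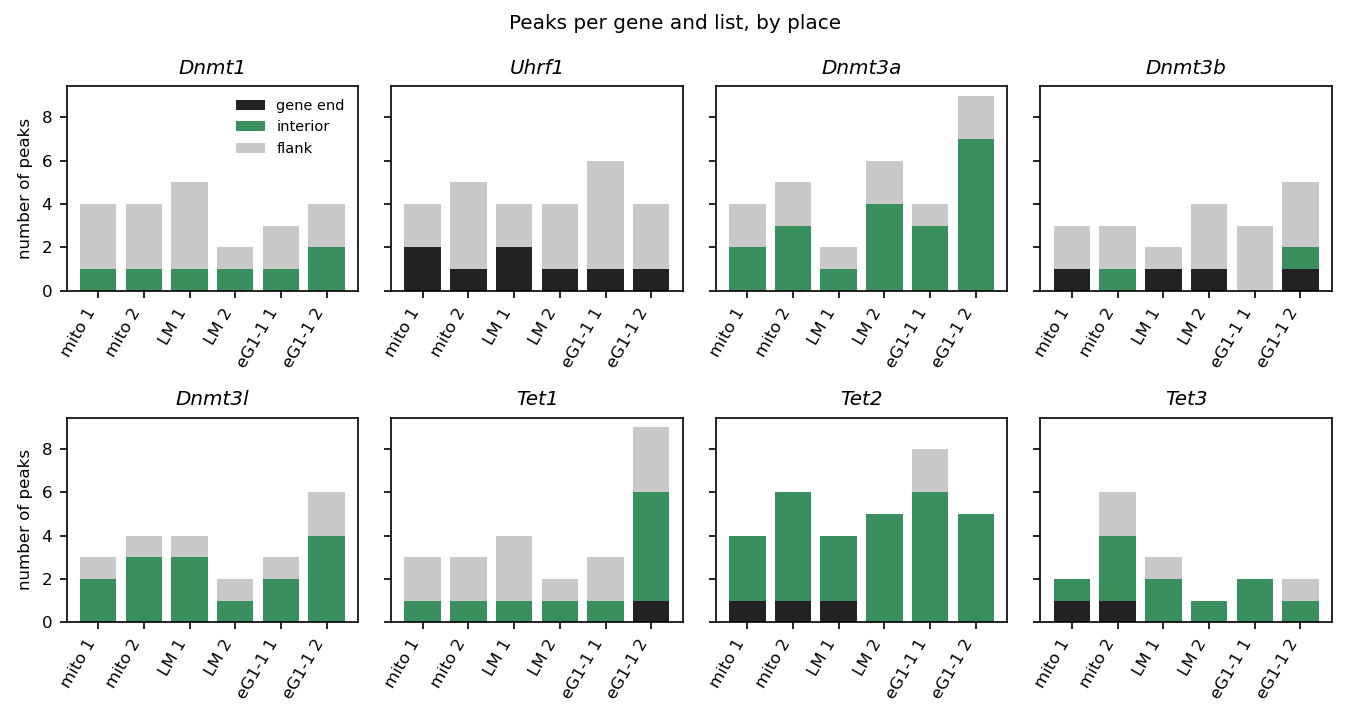
Number of peaks (y axis) in each gene and the 20 kb either side, for the 6 lists (x axis, group and replicate), split into gene-end, interior and flanking peaks. Tet1 and Dnmt3a reach 9 peaks in eG1-1 replicate 2, and Tet3 has gene-end peaks in mito only.

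The 66 regions were shared among the lists about as regions were in the genome. Of them, 9 (13.6%) were in all 6 lists and 27 (40.9%) in 1 list, beside 15.5% and 42.4% of all regions. By place, 9 were at a gene end, 33 inside the gene and 24 in the flank. Of the 66, 12 had their centre within 1 kb of the end of another gene. Of the 9 regions in all 6 lists, 5 were not at another gene's end: 1 each at Dnmt1, Uhrf1 and Dnmt3l, and 2 in Tet2.

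The bases around the starts differed as widely as the calls. A start was called CpG-rich where its 300-base window had a GC share of at least 50% and CpG at 0.6 or more of the number that its C and G content gives. Of the 15 starts, 7 were CpG-rich. Those in all 6 lists were Dnmt1 start 3, with 33 CpG and a ratio of 0.910, and Uhrf1 start 2, with 33 and 0.959. This is 2 of 7, beside 45.5% of all CpG-rich starts. Tet1, with 17 CpG and a ratio of 0.607, and Dnmt3a start 1, with 46 and 0.964, were in no list, 2 of 7 beside 9.15%. The nearest peak to Dnmt3a start 1 was 1075 bp away in mito replicate 2, just outside the 1 kb limit. Dnmt3a start 2 counted that peak, at 895 bp. Tet2 had the highest ratio, 1.17 with 57 CpG, and a peak within 1 kb in 3 lists, none of which entered its 300-base window.

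Of the 8 starts below the CpG limit, Dnmt1 start 2 (ratio 0.5) and Uhrf1 start 1 (ratio 0.472) had a peak in all 6 lists, beside 8.04% of such starts in the genome. Dnmt1 start 1 (ratio 0.101) and Dnmt3l start 1 (ratio 0.272) had none, beside 72.8%. Starts of the same gene share peaks: the Dnmt1 region reached both inner starts, and the first Uhrf1 peak lies within 1 kb of the second start. Dnmt3a starts 1 and 2 have overlapping windows and are not separate observations. In the window itself, Dnmt3b, Tet1, Tet2 and the 3 starts of Dnmt3a had no peak in any list.

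**Figure D4:**
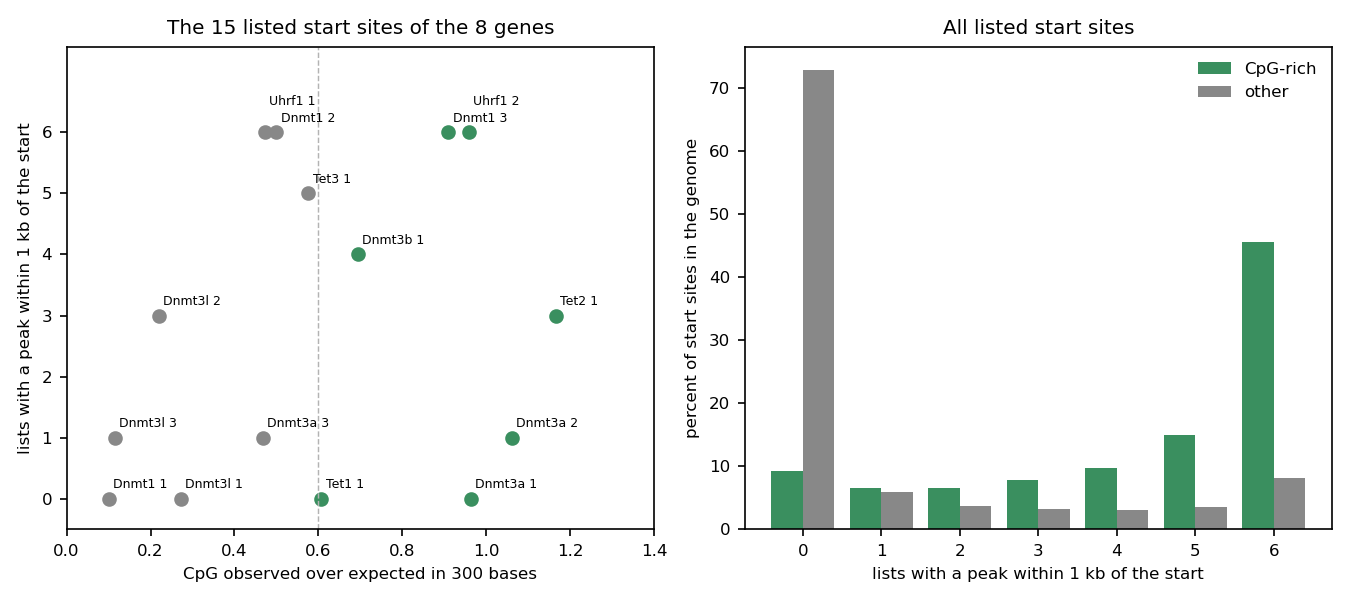
Left, CpG observed over expected in the 300-base window (x axis) against the number of lists with a peak within 1 kb (y axis) for the 15 listed starts, named by gene and start number; green points are CpG-rich. Right, the percentage of all listed starts in the genome (y axis) by number of lists (x axis), for CpG-rich and other starts. Tet1 and Dnmt3a start 1 lie at 0 lists although CpG-rich.

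Short motifs were searched on both strands in the 300-base windows. GGGCGG, the GC box read by Sp factors, matched 12 of the 15 windows and 35.7% of all 32851 listed windows. CCAAT, the box read by NF-Y, matched 5 (Dnmt1 starts 1 and 3, both Uhrf1 starts and Tet3) and 37.4%. GCATGCGC, the core read by Nrf1, matched Dnmt1 starts 2 and 3 and 2.71% of all windows. TTTGGCGC, an E2F-type site, matched Dnmt1 start 3 and 0.514%. The other E2F-type site TTTCCCGC matched none of the 15 windows and 1.07% of all, the ETS site CCGGAAG none and 8.86%, the octamer ATGCAAAT none and 1.74%, and the SOX-type core CATTGT none and 12.6%. These are matches of letters in the windows, and GGGCGG is itself built from C and G, in which most of these windows are rich.

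Other genes of the pathway were read at their annotated ends from a list of 41, of which 15 had a gene-end peak in all 6 lists and 6 in none. In both lists of a group, 26 had one in mito, 16 in LM and 19 in eG1-1, beside 43.1%, 32.7% and 39.4% of all protein-coding genes. Single lists held 29 and 31 of them in mito, 26 and 17 in LM, with 24 and 27 in eG1-1, with LM replicate 2 the lowest. Among all protein-coding genes 27.8% had a gene-end peak in all 6 lists and 38.6% in none. Cxxc5, which binds unmethylated CpG, scored 48 and 60 in mito, had no LM peak and scored 36 in eG1-1 replicate 2. Parp1, a DNA repair enzyme, scored 64 and 105 in mito, had no LM peak and scored 73 in eG1-1 replicate 2. Mat2b, a subunit of the enzyme that makes the methyl donor, scored 26 and 41 in mito and was called in no other list. These 3 of 41 genes stand beside 2.17% of all genes held in mito and not LM. No gene of the list was held in both lists of LM or eG1-1 and neither list of another group. The shares of all genes with those patterns were not counted, so this absence cannot be set against a background. The glycosylase Tdg, which excises oxidised cytosine, was held in all 6 lists with scores of 99 and 108 in mito, 82 and 29 in LM, with 52 and 126 in eG1-1.

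The gene with the percentile pattern most like that of Uhrf1 over the 6 lists was Bcl2l13, with a mean absolute difference of 2.93 percentile points. For Dnmt3b it was Mark1, at 4.02 points, where a list without a peak counts as percentile 0. Mark1 had a peak in only 2 of the 4 lists in which Dnmt3b had one, so the likeness rests largely on missing peaks. Dnmt1, Dnmt3a, Dnmt3l, Tet1, Tet2 and Tet3 had a gene-end peak in fewer than 4 lists and were not matched.

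The label of the cells was checked on marker genes at their annotated ends. Of 10 embryonic stem cell markers, single lists held 9 and 7 in mito, 5 and 5 in LM, with 4 and 8 in eG1-1. In both lists of a group, 7 of the 10 had a gene-end peak in mito, 3 in LM and 4 in eG1-1. Over all protein-coding genes these shares were 43.1%, 32.7% and 39.4%. Zfp42 and Utf1 were in all 6 lists and Esrrb in none. None of 5 primitive endoderm markers had a peak in any list. Of 5 trophoblast markers single lists held 0 to 2, and of 6 fibroblast markers 1 to 4, with Col1a1 in all 6. Both lists of mito, LM and eG1-1 held 1, 2 and 3 of the fibroblast markers and 0, 0 and 2 of the trophoblast markers. An open gene end is not expression, so these counts cannot establish which cells were present. The part of other cells in the results above was not tested.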

How the data were processed

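ATAC-seq of 6 samples was deposited as 1 peak list per sample, with 5 columns. Per the submitters' processing notes, the tools were MACS2 2.2.4, bedtools, SAMtools 1.10, Picard, STAR 2.7.0e and deepTools 3.5.1, on the builds mm10 and GRCm38, with no roles stated. The authors called peaks per sample, as read from the names of the deposited peaks. The deposited score is the authors' whole number per peak, at least 13 in every list. Not given in the sources used here: its scaling, any Tn5 offset and the peak threshold. The lists hold no read counts, so depth is unknown, and where a peak is absent it was not called, which does not show closed DNA.

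Peaks were merged across lists (overlap of at least 1 bp) and placed by RefSeq gene coordinates (GRCm38.p6, the assembly also called mm10) as gene end (1 kb either side), interior or flank (20 kb). The trend was an exact permutation test with Benjamini-Hochberg adjustment, in Python 3.11.15 with numpy 2.4.6 and pandas 2.3.3. The permutation test was also run on simulated data. That run is not taken as evidence of power at slopes of the size seen here, from -1 for Tet3 to 1.5 for Tet1. Alternatives were a score of at least 50, equal list length, other windows, matching by centres within 250 bp, each list left out, and a replicate block. Regions were named where they lay at a gene end, in all 6 lists, or in both lists of one group and neither of another; the other regions named were chosen after their values were seen. For genes with a gene-end peak in 4 or more lists, the gene of most similar percentiles was named. The members and lists were chosen with earlier results of these data known.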

Additional observations from a re-analysis of the deposited data

How the results depend on the processing

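No trend reached an unadjusted p under 0.05 in any of the 8 genes under the 12 alternatives run, including the replicate block, where the count was 0 as without it; the 36 blocked assignments cannot give a p below 0.0556, and the 30 assignments without either LM list none below 0.0667, so those settings say nothing about stability. Same-numbered samples share a replicate number and a code in their peak names, and their deviations correlated at 0.0328, 0.0324 and 0.0141 over the 3 pairs of groups.

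Genes with a gene-end peak in both mito lists numbered 2 with a score of at least 50, at equal list length, within 500 bp and by peak centre, each without Tet2. Those in both LM lists numbered 1 with a score of at least 50 and 1 within 500 bp, and in eG1-1 2 within 2 kb. Leaving out lists gave 3 to 4 in mito, 2 to 3 in LM and 1 to 3 in eG1-1. At listed starts mito gave 2 genes with the 300-base window, and leaving out lists gave 5 to 6 in mito, 3 to 6 in LM and 3 to 5 in eG1-1. Mean window peaks in mito, LM and eG1-1 were 18, 12 and 19 with a score of at least 50, 24, 25.5 and 19.5 at equal list length, 24, 20 and 29 with 10 kb flanks, and 50, 41 and 60 with 50 kb flanks. Regions in mito and not LM numbered 4 of 35 with a score of at least 50 (11.4%, beside 5.12% of all regions). By centres within 250 bp they numbered 1 of 76 (1.32%, beside 3.45%). Those in eG1-1 and not LM numbered 3 of 35 with that score (8.57%, beside 10.6%) and 0 of 47 at equal length (beside 4.01%). At equal length LM held 1 region against mito (2.13%, beside 2.08%) and 2 against eG1-1 (4.26%, beside 3.12%). Leaving out lists gave 4 to 9 regions in mito and not LM, 5 to 10 in mito and not eG1-1, 1 to 5 in LM and not mito, 1 to 4 in LM and not eG1-1, 3 to 16 in eG1-1 and not mito, and 4 to 16 in eG1-1 and not LM. Over all regions the same settings gave 6% to 14.1%, 2.95% to 8.18%, 1.56% to 6.31%, 0.846% to 5.2%, 10.4% to 35.5% and 13.9% to 39.4% in that order. A stricter score or fewer peaks removes calls by construction. Leaving out a list asks for 1 list in place of 2, so gene counts can only stay or rise and the region rules are looser. Beyond that the cause was not tested.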
